A study of Mus musculus with 12 samples.

Results

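Rab GTPases are small switch proteins that mark the membranes of the secretory and endocytic pathways. Loaded with GTP by an exchange factor (GEF), a Rab recruits effectors such as motors and tethers to its membrane. A GTPase-activating protein (GAP) returns it to the GDP-bound form, which GDP dissociation inhibitors (GDIs) extract from the membrane. In macrophages, Rabs of the early and late endosome act in turn on the maturing phagosome, and others carry cytokines, receptors and lysosome-related organelles to the cell surface.

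The Rab family was taken as every protein-coding mouse gene of GENCODE whose symbol is Rab, a number and at most one further letter, leaving out Rab44. This gave 58 genes, of which 55 were among the 20551 genes of the count table. Rab17, Rab3c and Rab9b were not analysed here. After the filter on low counts 45 of the 55 could be tested, beside 13729 genes in all, and 10 stayed below it.

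Expression was measured in airway macrophages (AMs) of C57BL/6 mice, aged 6 weeks per the study's methods. Wild-type (WT) mice were set against Scnn1b-Tg mice, whose transgene raises the beta subunit of the sodium channel ENaC in airway epithelium and whose airways become obstructed by mucus. Cells from pools of 3 to 4 animals spent 12 h in culture, either in medium alone or with lipopolysaccharide (LPS) from Pseudomonas aeruginosa at 100 ng/ml. The 2 genotypes and 2 treatments gave 4 groups of 3 libraries. WT pools 16, 17 and 18 and Scnn1b-Tg pools 17, 18 and 19 each gave 1 library per treatment, and library values are listed in that order of pools. WT pools 16 and 17 and Scnn1b-Tg pool 17 belonged to library batch 1, and the other 3 pools to batch 2. Accounts of the isolation differ: the labels describe adherent lavage cells, with a remark that sorted cells may have been used, and the study's methods describe AMs sorted from digested lung. Every group is thus a culture of pooled animals, and a Rab transcript level is that of the culture, in which fewer cells of a type and less RNA per cell cannot be told apart.

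Deposited counts per library summed to 48.2 to 60.9 M. All 11 AM markers were detected, with a summed level of 11177 to 19989 counts per M counts (CPM) in every library, although 6 of them fell and 2 rose with LPS in WT and 7 fell and 2 rose in Scnn1b-Tg AMs. The summed level of 6 monocyte and interstitial macrophage markers was 11.6 to 17.5 CPM in medium and 2.74 to 3.96 CPM in LPS, with 2 markers lower in WT and 1 in Scnn1b-Tg AMs. Of 8 neutrophil markers, summing to 20.7 to 37.8 CPM in medium and 15.2 to 22.5 CPM in LPS, 1 rose and 2 fell in WT and 2 rose and 3 fell in Scnn1b-Tg AMs, while S100a9 and Ngp were at or under the floor throughout. The floor is 8 deposited counts in a library, the worth of about 3 reads, which was 0.137 to 0.163 CPM and covers counting error only. Epithelial markers (9 genes) summed to 81.6 to 121 CPM in WT and 36.7 to 75.9 CPM in Scnn1b-Tg libraries, with none called between the genotypes in either treatment. Markers of T and NK, B, eosinophil and erythroid cells stayed under 2 CPM in sum. The part of these markers in the Rab results was not tested. Scnn1b itself held 0 to 40 counts in a library, at most 0.755 CPM, and cannot check the genotype labels in these cells.

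Promoter windows from RefSeq (GRCm38.p6, from 250 bases before to 50 after the start site) were found for 48 of the 58 members and are shown for the pair that rose most with LPS, Rab20 and Rab32, and for Rab19, Rab21 and Rab28, which held one of the searched motifs and belong to the 12 members with the largest mean LPS change among those called in both genotypes. Capitals mark the motif matches.
Rab20 (chr8:11478591-11478890, minus strand): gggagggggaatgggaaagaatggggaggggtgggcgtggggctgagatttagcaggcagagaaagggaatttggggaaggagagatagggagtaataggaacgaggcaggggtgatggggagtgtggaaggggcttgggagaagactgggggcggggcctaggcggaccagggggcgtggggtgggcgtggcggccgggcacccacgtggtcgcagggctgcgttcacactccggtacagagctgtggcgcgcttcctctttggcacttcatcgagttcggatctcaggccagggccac
Rab32 (chr10:10558158-10558457, minus strand): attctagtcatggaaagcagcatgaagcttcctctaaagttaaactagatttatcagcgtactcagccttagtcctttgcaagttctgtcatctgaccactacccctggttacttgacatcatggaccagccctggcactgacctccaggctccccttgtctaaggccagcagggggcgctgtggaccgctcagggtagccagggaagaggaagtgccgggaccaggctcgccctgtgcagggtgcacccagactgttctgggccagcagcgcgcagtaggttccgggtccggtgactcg
Rab19 (chr6:39381103-39381402, plus strand): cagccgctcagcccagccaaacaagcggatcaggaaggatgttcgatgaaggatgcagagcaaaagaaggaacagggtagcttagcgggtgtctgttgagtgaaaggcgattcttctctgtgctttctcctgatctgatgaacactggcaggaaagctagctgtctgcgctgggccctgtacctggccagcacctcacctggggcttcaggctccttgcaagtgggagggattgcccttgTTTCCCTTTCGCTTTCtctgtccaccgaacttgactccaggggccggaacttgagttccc
Rab21 (chr10:115315542-115315841, minus strand): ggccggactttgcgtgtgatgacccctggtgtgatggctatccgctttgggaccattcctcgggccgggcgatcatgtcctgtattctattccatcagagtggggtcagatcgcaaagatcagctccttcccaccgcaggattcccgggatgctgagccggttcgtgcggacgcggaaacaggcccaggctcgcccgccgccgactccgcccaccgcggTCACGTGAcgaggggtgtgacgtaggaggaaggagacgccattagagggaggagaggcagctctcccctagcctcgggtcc
Rab28 (chr5:41708130-41708429, minus strand): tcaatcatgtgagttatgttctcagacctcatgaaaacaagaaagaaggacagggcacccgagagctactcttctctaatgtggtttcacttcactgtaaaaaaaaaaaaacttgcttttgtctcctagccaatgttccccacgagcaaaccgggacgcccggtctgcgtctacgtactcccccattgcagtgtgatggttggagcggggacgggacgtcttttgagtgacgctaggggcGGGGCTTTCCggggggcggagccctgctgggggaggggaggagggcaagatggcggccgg

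Both strands were searched for the kB consensus, the AP-1 site TGANTCA, the core of the interferon-stimulated response element (ISRE) and the E-box TCACGTG bound by lysosomal gene regulators. Rab19 held 2 overlapping ISRE cores around its start site, on the strand opposite to the gene. Rab21 held the E-box, read on both strands because its palindrome extends to the next base, and Rab28 held 1 kB match. Of the other members called with LPS, Rab5a also held the E-box and Rab11a a kB match, in windows not shown. Of all 32851 windows, 3.44% held an ISRE core, 3.77% the E-box, 8.46% a kB match and 7.81% an AP-1 site, and among the 60 windows of members these shares were 1.67%, 6.67%, 5.0% and 5.0%. No match was found in the windows of Rab20, Rab32, Rab10, Rab12, Rab6a, Rab27a, Rab29, Rab40c or Rab31. A match is a description of the sequence alone. The windows of members had a median GC content of 61.2%, and all windows 52.7%.

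Compared per kb of exon, a CPM level that allows genes of unequal length to be set side by side, Rabs were abundant in resting AMs. The median tested member stood at 14.4 CPM per kb in WT medium, against 3.57 over all tested genes with a known length. Rab1b, which serves traffic from the endoplasmic reticulum (ER) to the Golgi, led at 204 ± 6.83 CPM per kb (mean ± SD, n = 3), and Rab7, the Rab of late endosomes and lysosomes, followed at 203 ± 54.7, a difference within their SD. Rab1a, the paralog of Rab1b, stood at 122 ± 4.8 CPM per kb, apart from both its neighbours in the order by more than their SDs. Rab2a, also of the early secretory pathway, reached 102 ± 3.16 and differed in the same way from Rab32, which at 85.7 ± 7.6 overlapped with Rab10 at 81.5 ± 1.28 CPM per kb. These 5 leading genes held 51.9% of all Rab CPM per kb, or 45.6% with coding length in place of exon length, in which case Rab10 and Rab8b took the places of Rab2a and Rab32. By coding length Rab7 (529 CPM, 647 bases) also stood above Rab1b (464 CPM, 900 bases) in WT medium.

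**Figure D1:**
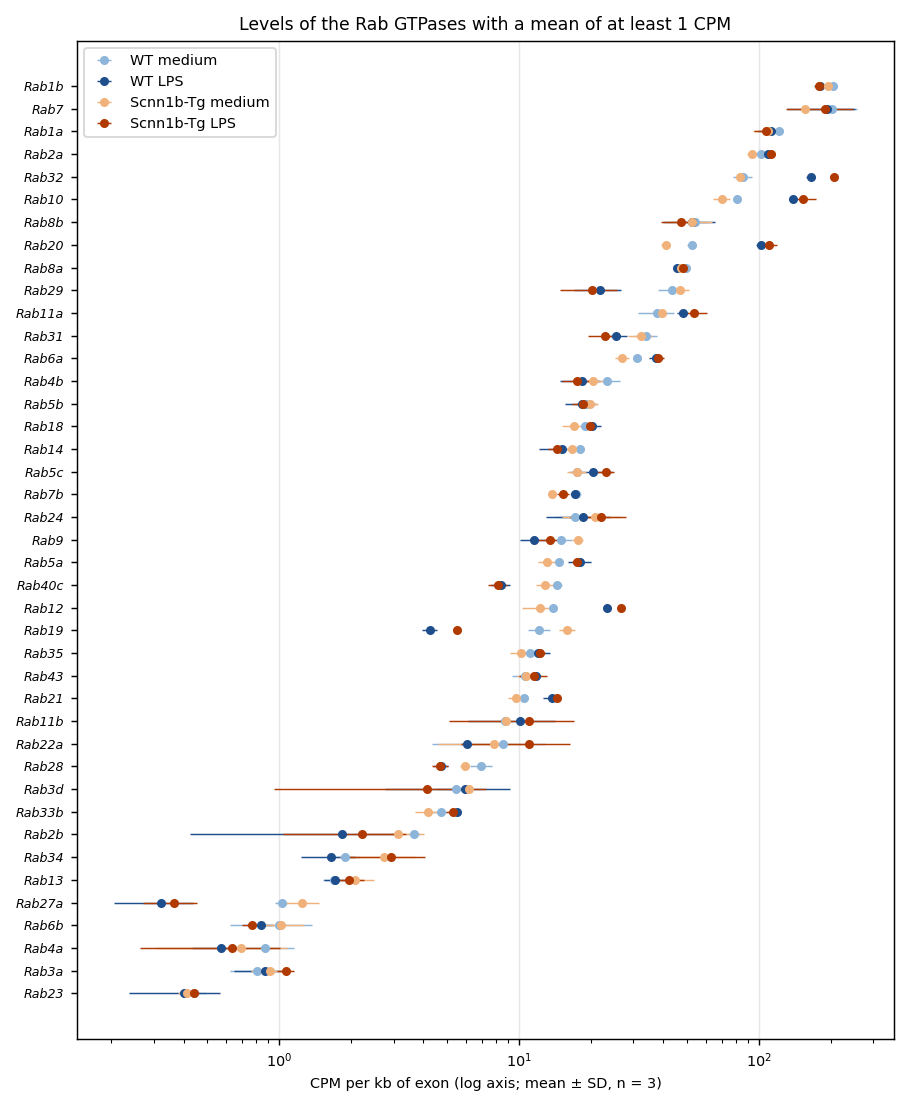
Level of the 41 tested Rab GTPases with a mean of at least 1 CPM, in CPM per kb of exon on a log axis, as the mean ± SD of 3 libraries for each group and ordered by WT medium. Most members keep their place across the 4 groups, while Rab32, Rab10 and Rab20 lie to the right and Rab29, Rab19 and Rab27a to the left after LPS.

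The order by exon length changed with LPS. Rab32 moved from rank 5 in medium to rank 3 in WT LPS and to rank 1 in Scnn1b-Tg LPS, where it stood at 205 ± 5.1 CPM per kb beside Rab7 at 189 ± 59.1. By coding length Rab32 (480 CPM, 725 bases) did not lead there, as Rab10 (539 CPM, 600 bases) stood above it. Rab10, which carries receptors to the plasma membrane, moved from rank 6 to rank 4 in both genotypes. Rab29 dropped from rank 10 to 14 in WT and from 9 to 16 in Scnn1b-Tg AMs. Summed over the 55 members, Rab transcripts were 4377 ± 143 CPM in WT medium, 4673 ± 373 in WT LPS, 4012 ± 181 in Scnn1b-Tg medium and 4836 ± 199 in Scnn1b-Tg LPS, and this sum was not tested.

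To see how the Rab repertoire answers a bacterial product, LPS was compared with medium in each genotype by edgeR's quasi-likelihood test with a batch term, with Benjamini-Hochberg adjustment over all 13729 genes. In WT AMs 7 members rose and 9 fell, 35.6% of the 45 tested, beside 30.9% of all genes tested (15.2% higher and 15.7% lower). In Scnn1b-Tg AMs 12 rose and 9 fell, 46.7%, beside 36.7% of all genes (18.8% higher and 17.8% lower). Called with a log2 fold change past 1 were 2 of the 45 members in WT and 9 of the 45 in Scnn1b-Tg AMs, against 10.9% and 13.3% of all genes. Past 1 but not called were Rab42, Rab39 and Rab2b in WT and Rab39 in Scnn1b-Tg AMs. The libraries of the treatments did not overlap for 19 members in WT and 26 in Scnn1b-Tg AMs (42.2% and 57.8%), against 38.7% and 43.8% of all genes. The median log2 change of the members was -0.08 for WT and 0.08 for Scnn1b-Tg AMs, where all genes had 0.00 and -0.02, and their median absolute change was 0.26 and 0.38 against 0.32 and 0.36. In both genotypes 7 members rose (Rab20, Rab32, Rab10, Rab12, Rab21, Rab6a and Rab5a) and 7 fell (Rab27a, Rab19, Rab29, Rab40c, Rab31, Rab28 and Rab9), 31.1% of those tested beside 26.5% of all genes called in both with the same sign. These 14 were 87.5% of the WT calls and 66.7% of the Scnn1b-Tg calls. Over all genes, 3645 were called in both with the same sign, of 4242 called in WT and 5032 in Scnn1b-Tg AMs. The 2 comparisons share no library, but they share the batch term and the estimate of the spread.

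**Figure D2:**
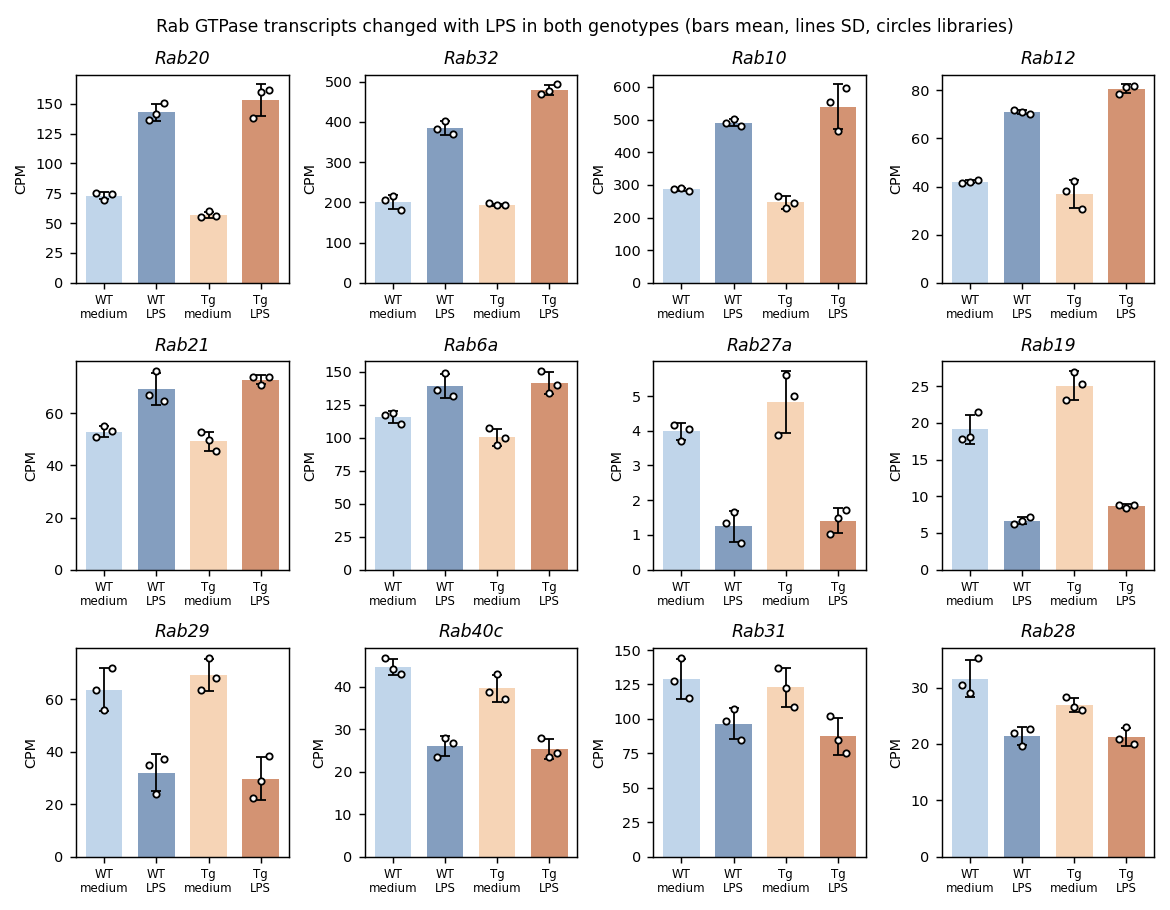
CPM of the 12 Rab GTPases with the largest mean change among those called in both genotypes, with bars for the mean, lines for the SD and circles for the 3 libraries of each group. For every one of them the LPS libraries lie apart from the medium libraries of the same genotype. The same held for 38.7% of all genes in WT and 43.8% in Scnn1b-Tg AMs, which were not chosen by their calls.

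Rab20 (mm10 chr8:11453518-11478710, minus strand), which acts on the maturing macrophage phagosome, rose most. In WT it stood at 75.3, 69.3 and 74.6 CPM in medium and at 137, 141 and 150.5 CPM in LPS. In Scnn1b-Tg AMs it went from 54.8, 59.9 and 55.9 to 138, 160.0 and 161 CPM. Every LPS library lay above every medium library, and the log2 fold change was 0.97 ± 0.071 for WT and 1.42 ± 0.072 for Scnn1b-Tg AMs (adjusted p = 2.83e-06 and 1.51e-07). Of its exons, 356 of 1392 bases (25.6%) overlap E230013L22Rik, which held 1.43 to 3.4 CPM in the group means, and counting ignored strand.

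Rab32 (mm10 chr10:10545002-10558265, minus strand) directs proteins to lysosome-related organelles and is a restriction factor for intracellular bacteria. Its WT libraries held 206, 215 and 181 CPM in medium and 382, 403 and 369 CPM in LPS, and its Scnn1b-Tg libraries 198, 193 and 192 and 469.9, 478 and 493 CPM. The groups did not overlap, with a log2 fold change of 0.94 ± 0.072 for WT and 1.31 ± 0.072 for Scnn1b-Tg AMs (adjusted p = 3.54e-06 and 2.65e-07). Rab12 (mm10 chr17:66494512-66519729, minus strand), which sends transferrin receptor to lysosomes, also stood apart in the late endosomal group. It went from 41.4, 41.9 and 42.6 to 71.8, 71.0 and 70.1 CPM for WT, and for Scnn1b-Tg AMs from 38.0, 42.1 and 30.8 to 78.5, 81.6 and 81.7 CPM. Its change was 0.76 ± 0.10 for WT and 1.12 ± 0.10 for Scnn1b-Tg AMs (adjusted p = 0.000221 and 9.49e-06).

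Rab10 (mm10 chr12:3247428-3309969, minus strand) has been linked to delivery of Toll-like receptor 4, the LPS receptor, to the macrophage surface. In WT it rose from 287, 290.5 and 282 to 489, 502 and 479.8 CPM. In Scnn1b-Tg AMs it rose from 267, 228 and 243 to 555, 464 and 598 CPM, with more spread among the LPS libraries than in WT. The log2 fold change was 0.78 ± 0.091 for WT and 1.13 ± 0.092 for Scnn1b-Tg AMs (adjusted p = 8.65e-05 and 4.11e-06), and Rab10 was the 1 member of the recycling and exocytosis group called in both genotypes.

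Among the early endosomal Rabs, Rab21, a regulator of integrin traffic, rose from 50.9, 54.9 and 53.0 to 67.0, 76.1 and 64.9 CPM in WT. In Scnn1b-Tg AMs it rose from 52.7, 49.6 and 45.4 to 73.8, 70.9 and 73.9 CPM, a log2 fold change of 0.39 ± 0.08 for WT and 0.57 ± 0.08 for Scnn1b-Tg AMs (adjusted p = 0.00371 and 0.000237). Rab5a, which drives fusion of early endosomes, rose less, by 0.29 ± 0.08 for WT and 0.43 ± 0.08 for Scnn1b-Tg AMs (adjusted p = 0.017 and 0.00162). Rab6a, which moves vesicles at the Golgi, went from 118, 119 and 110.5 to 137, 149 and 132 CPM for WT, and for Scnn1b-Tg AMs from 107, 94.4 and 100.1 to 150.5, 134 and 139.96 CPM. Its change of 0.27 ± 0.065 for WT and 0.49 ± 0.065 for Scnn1b-Tg AMs (adjusted p = 0.00938 and 0.000147) was on average the smallest of the 12, and 19% of its exon bases overlap Mrpl48.

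Rab27a (mm10 chr9:73044854-73097629, plus strand) docks secretory lysosomes and exosome-bearing endosomes at the plasma membrane, and its transcript had the largest mean fall of the members called in both genotypes. In WT it was at 4.17, 3.71 and 4.06 CPM in medium and 1.34, 1.65 and 0.755 CPM in LPS. In Scnn1b-Tg AMs it was at 3.87, 5.61 and 5.01 and 1.02, 1.48 and 1.73 CPM. The change of -1.66 ± 0.29 for WT and -1.78 ± 0.29 for Scnn1b-Tg AMs (adjusted p = 0.00131 and 0.000609) is about a fall to 0.316 and 0.292 of the medium level, at a low level with the widest error of the 12. Its closest paralog Rab27b held at most 8 deposited counts in a library and was not tested.

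Rab19 (mm10 chr6:39381175-39390380, plus strand), a little-studied Rab placed here with those of the Golgi, fell to a like extent. WT libraries went from 17.8, 18.1 and 21.4 to 6.23, 6.63 and 7.23 CPM, and Scnn1b-Tg libraries from 23.1, 26.9 and 25.3 to 8.87, 8.44 and 8.77 CPM. Its change of -1.51 ± 0.093 for WT and -1.52 ± 0.092 for Scnn1b-Tg AMs (adjusted p = 8.93e-07 and 4.92e-07) gave the lowest adjusted p of any member in WT. Rab29 (mm10 chr1:131867224-131872887, plus strand), which recruits the kinase LRRK2 to the trans-Golgi network and stressed lysosomes, fell from 63.4, 55.8 and 71.9 to 34.8, 24.0 and 37.2 CPM in WT. In Scnn1b-Tg AMs it fell from 63.5, 75.6 and 68.2 to 22.2, 28.8 and 38.2 CPM, and the log2 fold change was -0.996 ± 0.15 for WT and -1.24 ± 0.16 for Scnn1b-Tg AMs (adjusted p = 0.000603 and 0.000103). Rab12 and Rab10 rose while Rab29 fell, and a link between these changes was not tested.

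Rab40c, an unusual Rab that serves as the substrate receptor of a ubiquitin ligase, fell from 46.7, 44.3 and 43.0 to 23.4, 28.0 and 26.8 CPM in WT. In Scnn1b-Tg AMs it fell from 38.8, 43.1 and 37.0 to 28.0, 23.6 and 24.3 CPM, a change of -0.78 ± 0.10 for WT and -0.65 ± 0.10 for Scnn1b-Tg AMs (adjusted p = 0.000183 and 0.000476). Rab31 connects the trans-Golgi network with endosomes. It fell from 128, 144 and 115 to 98.2, 107 and 84.6 CPM for WT, and for Scnn1b-Tg AMs from 137, 123 and 109 to 102, 84.4 and 75.4 CPM, by -0.42 ± 0.084 for WT and -0.50 ± 0.084 for Scnn1b-Tg AMs (adjusted p = 0.00298 and 0.000811) on the log2 scale. Without the batch term its adjusted p in WT was 0.0506.

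Rab28, known from cilia and photoreceptors, fell from 30.5, 29.0 and 35.2 to 21.9, 19.6 and 22.7 CPM for WT, and for Scnn1b-Tg AMs from 28.3, 26.5 and 26.0 to 20.9, 23.0 and 19.9 CPM. Its change was -0.56 ± 0.099 for WT and -0.34 ± 0.099 for Scnn1b-Tg AMs (adjusted p = 0.00145 and 0.0197), and the Scnn1b-Tg call was lost without Scnn1b-Tg medium pool 17, LPS pool 17 or LPS pool 19 (adjusted p = 0.114, 0.0518 and 0.0968). Rab9, which recycles mannose-6-phosphate receptors from late endosomes, changed by -0.37 ± 0.11 for WT and -0.38 ± 0.11 for Scnn1b-Tg AMs (adjusted p = 0.033 and 0.0225).

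**Figure D3:**
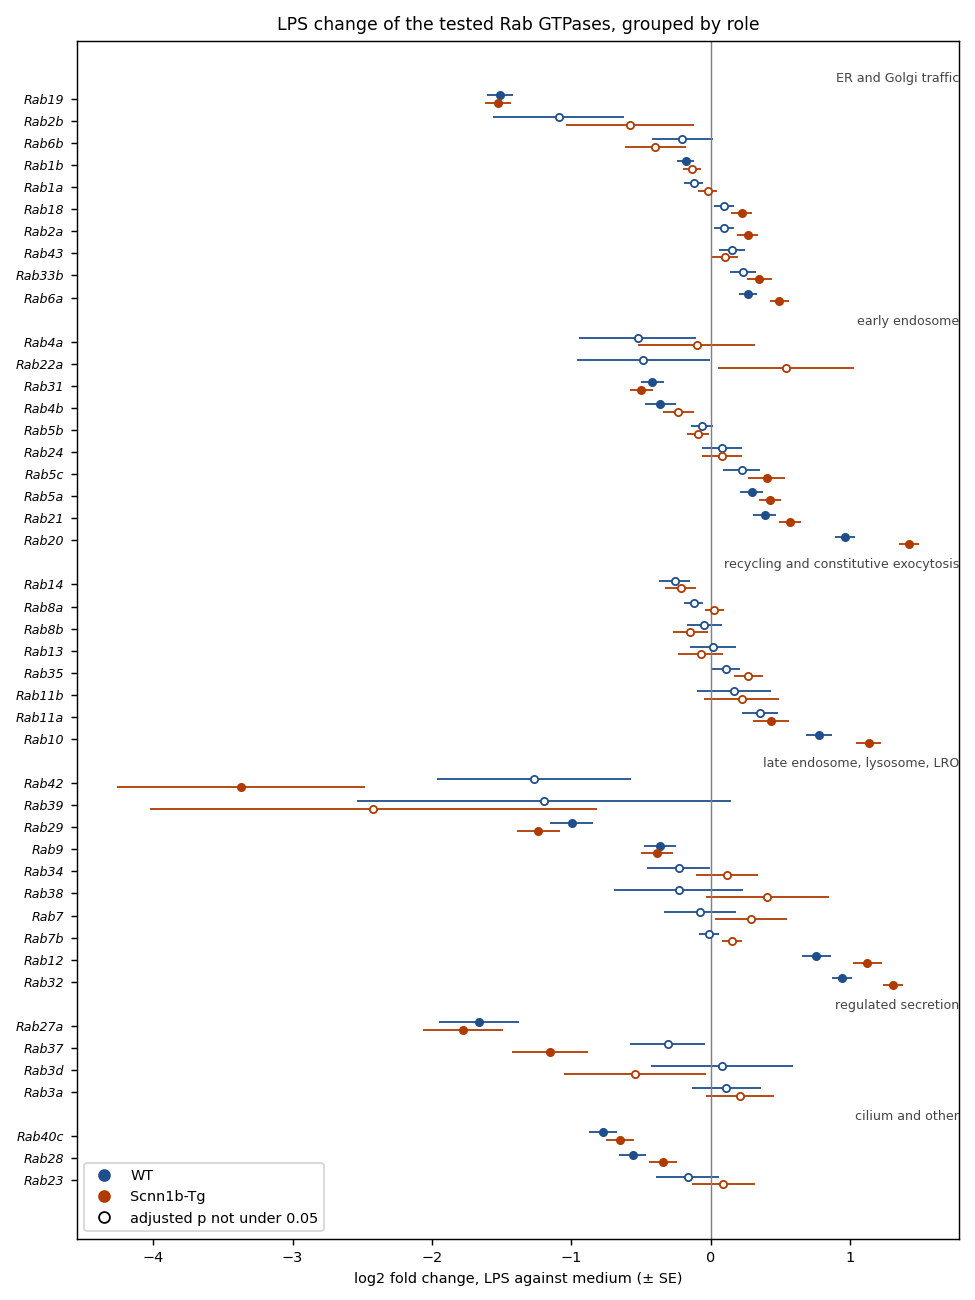
Fitted log2 fold change of LPS against medium with its SE for the 45 tested Rab GTPases, WT in blue and Scnn1b-Tg in orange, ordered within roles (LRO, lysosome-related organelles), with filled points where adjusted p was under 0.05. Risers and fallers called in both genotypes occur together in the ER and Golgi, early endosomal and late endosomal groups, and the widest bars belong to Rab42 and Rab39.

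By role, the 10 tested Rabs of ER and Golgi traffic held 1 rise and 2 falls in WT and 4 rises and 1 fall in Scnn1b-Tg AMs, with median log2 changes of -0.01 (WT) and 0.04 (Scnn1b-Tg). Rab1b fell in WT only by the test, at -0.18 ± 0.062 (adjusted p = 0.0489), with -0.13 ± 0.062 in Scnn1b-Tg AMs. Rab18 of lipid droplets and the ER, Rab2a and the Golgi Rab33b passed in Scnn1b-Tg AMs at 0.22 ± 0.073, 0.26 ± 0.074 and 0.35 ± 0.092, beside WT values of 0.10 ± 0.073, 0.10 ± 0.074 and 0.23 ± 0.092. A call in one genotype alone does not show a difference between them, and none of these passed the test of that difference.

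Of the 10 early endosomal Rabs tested, 3 rose and 2 fell in WT and 4 rose and 1 fell in Scnn1b-Tg AMs, with medians of 0.01 and 0.24. Rab5c, a paralog of Rab5a, passed in Scnn1b-Tg AMs at 0.40 ± 0.13, beside 0.22 ± 0.13 in WT, whereas the third paralog Rab5b had -0.06 ± 0.08 and -0.09 ± 0.08 and did not pass. Rab4b, of the fast recycling route, passed in WT at -0.36 ± 0.11 and had -0.23 ± 0.11 in Scnn1b-Tg AMs. Exons of Rab4b overlap those of Gm21983 over 69.4% of their length.

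The 10 late endosomal and lysosomal members gave 2 rises and 2 falls in WT and 2 rises and 3 falls in Scnn1b-Tg AMs, with medians of -0.23 and 0.13. The added call was Rab42, a low transcript with 11, 13 and 10 deposited counts in Scnn1b-Tg medium and 0, 0 and 3 in LPS, at least 1.4-fold lower against the floor. Rab39 at 23, 5 and 8 and then 0, 0 and 5 counts did not pass, and the medians were the same with both set to their bounds. Rab7b, which returns receptors from late endosomes to the Golgi, stood at 79.8 ± 4.09 and 79.2 ± 1.42 CPM in WT and changed by -0.01 ± 0.072 and 0.15 ± 0.073, neither past the test.

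Of 8 recycling and exocytosis members, 12.5% were called in WT and 25.0% in Scnn1b-Tg AMs, beside 30.9% and 36.7% of all genes. In WT 1 rose and in Scnn1b-Tg AMs 2 rose, with none lower and medians of 0.06 and 0.12. Rab11a, the Rab of the recycling endosome, was the second, at 0.43 ± 0.13 (adjusted p = 0.022), beside 0.35 ± 0.13 in WT (adjusted p = 0.0591). Rab8a, Rab8b, Rab13, Rab14 and Rab35 did not pass in either genotype, with changes between -0.26 and 0.27. Of 4 secretory Rabs tested, Rab27a fell in both genotypes and Rab37, found on mast cell granules, in Scnn1b-Tg AMs. Rab37 went from 1.13, 1.03 and 1.03 to 0.387, 0.437 and 0.626 CPM there, a change of -1.15 ± 0.28 (adjusted p = 0.0072), and had -0.31 ± 0.27 in WT.

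Several members had libraries that stood apart within a group. For Rab22a and Rab7 such libraries occurred in both treatments, and for Rab3d, Rab11b and Rab2b mainly in LPS. Rab22a, of early endosomes, was at 26.9, 83.5 and 75.5 CPM in WT medium and 99.9, 102 and 35.6 CPM in Scnn1b-Tg LPS. Rab3d, of secretory granules, was at 30.6, 34.7 and 9.69 CPM in WT LPS and 10.0, 9.22 and 32.7 CPM in Scnn1b-Tg LPS. Its medium means ± SD were 23.0 ± 3.98 CPM (WT) and 25.9 ± 1.33 CPM (Scnn1b-Tg). Rab7 held 694, 448 and 445 CPM in WT medium against 418, 407 and 391.5 CPM in Scnn1b-Tg medium, and 3 of the 4 groups held 1 such high library. Rab11b read 90.5, 51.4 and 44.7 CPM in WT LPS and 110.0, 47.9 and 45.6 CPM in Scnn1b-Tg LPS. In medium it stood at 53.7 ± 2.68 CPM (WT) and 54.3 ± 2.44 CPM (Scnn1b-Tg). Rab2b, whose exons overlap Tox4 and Gm43766 over 64.0% of their length, read 14.3, 4.25 and 4.21 CPM in WT LPS. Its medium means ± SD were 15.2 ± 0.977 CPM (WT) and 13.0 ± 3.73 CPM (Scnn1b-Tg). None of these 5 passed any test. Their SEs in the LPS comparisons reached 0.51 on the log2 scale, and a change of that size would not have been detected.

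Below the filter were 10 members of the table (Rab15, Rab25, Rab26, Rab27b, Rab30, Rab33a, Rab36, Rab39b, Rab3b and Rab40b). Rab30 was at 0 in all 12 libraries, and the other 9 held at most 13 deposited counts in any library.

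The second question was whether AMs of mice with mucus obstruction differ in their Rab transcripts. No member passed in either treatment, where 0.262% of all genes passed in medium and 0.051% in LPS. At an unadjusted p under 0.05 the edgeR test had 6 of 45 members in medium (13.3%, against 13.0% of all genes) and 5 in LPS (11.1%, against 6.78%). The Scnn1b-Tg and WT libraries did not overlap for 10 members in medium and 7 in LPS (22.2% and 15.6%), where 18.4% and 9.11% of all genes did not. DESeq2, the tool of the study, called Rab20, Rab7b and Rab19 in medium and Rab32 in LPS, 3 and 1 members, and it also called more genes in all, 3.65% and 1.06% of those tested.

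The lowest p in medium was that of Rab20, with means of 73.1 ± 3.27 CPM (WT) and 56.9 ± 2.69 CPM (Scnn1b-Tg) and no overlap between the libraries listed above. Its log2 difference of -0.40 ± 0.073 had an unadjusted p of 0.000223 and an adjusted p of 0.0613 in the edgeR model, and was -0.39 within batch 1 and -0.36 within batch 2. After LPS the difference was 0.06 ± 0.073. Rab7b stood at 81.9, 75.1 and 82.4 CPM in WT medium and 64.0, 65.8 and 61.5 CPM in Scnn1b-Tg medium, a difference of -0.31 ± 0.075 (adjusted p = 0.119), and -0.29 and -0.37 within the batches. Rab4b had -0.29 ± 0.12 (adjusted p = 0.322), with overlapping libraries.

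Rab19 was higher in every Scnn1b-Tg library than in any WT library of the same treatment. The difference was 0.35 ± 0.092 in medium and 0.33 ± 0.094 in LPS, of which neither passed (adjusted p = 0.153 and 0.36). Within batches 1 and 2 it was 0.35 and 0.28 in medium and 0.44 and 0.24 in LPS. Rab32 was at 385 ± 17.4 CPM in WT LPS and 480.3 ± 11.9 CPM in Scnn1b-Tg LPS without overlap, a difference of 0.35 ± 0.073 with an unadjusted p of 0.00073 and an adjusted p of 0.216, and 0.26 and 0.39 within the batches. In medium Rab32 had -0.02 ± 0.074. Rab34, which positions lysosomes, had 0.64 ± 0.23 in LPS (adjusted p = 0.607), with 1 WT library within the range of the Scnn1b-Tg libraries, and Rab7b had -0.15 ± 0.075 (adjusted p = 0.796). Rab37 and Rab42, both under 1 CPM, had adjusted p of 0.449 in LPS. In sum, the epithelial markers given above were lower in Scnn1b-Tg libraries beside these values, and their part was not tested. Of these markers, Scgb1a1 had means of 54.3 (WT) and 19.5 CPM (Scnn1b-Tg) in medium, and 62.7 and 25.2 CPM in LPS. In medium Cdh1, Foxj1 and Cldn18 had higher means in Scnn1b-Tg than in WT AMs.

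The third question was whether the LPS response itself differed, tested as the interaction. With edgeR 0 of 45 members and 0.0% of all genes passed. At an unadjusted p under 0.05 there were 5 members (11.1%) and 795 genes (5.79%). DESeq2 called Rab20 and 0.561% of all genes. The members with the lowest p were Rab20, Rab32, Rab10 and Rab12, with excess log2 changes in Scnn1b-Tg AMs of 0.46 ± 0.1, 0.36 ± 0.10, 0.36 ± 0.13 and 0.37 ± 0.14, unadjusted p of 0.000835, 0.0044, 0.0188 and 0.0275, and adjusted p of 0.374, 0.539, 0.756 and 0.793.

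Taken pool by pool, as the difference between the LPS and the medium library of the same animals in log2(CPM + 0.5), Rab20 rose by 0.85, 1.02 and 1.01 in WT pools 16, 17 and 18 and by 1.32, 1.41 and 1.52 in Scnn1b-Tg pools 17, 18 and 19. Rab32 rose by 0.89, 0.91 and 1.03 and by 1.25, 1.30 and 1.36. For Rab10 the changes were 0.77, 0.79 and 0.77 in WT and 1.05, 1.02 and 1.30 in Scnn1b-Tg pools. Each Scnn1b-Tg pool thus exceeded every WT pool for these genes, and the same held for Rab12, Rab21 and Rab6a, all 6 of the risers among the 12 members. Rab5a, which also rose in both genotypes, had overlapping pools, with 0.42, 0.37 and 0.09 in WT and 0.40, 0.40 and 0.48 in Scnn1b-Tg AMs. Every Scnn1b-Tg pool lay above every WT pool for 9.2% of all tested genes. Among the 1844 genes that rose in both genotypes the share was 26.3%. The 6 risers were chosen by the size of their mean change over both genotypes, and the 1844 genes were not, so the shares are not like for like. Of the 6 fallers 1, Rab28, had every Scnn1b-Tg pool above every WT pool, and the pools of Rab27a, Rab19, Rab29, Rab40c and Rab31 overlapped between genotypes.

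**Figure D4:**
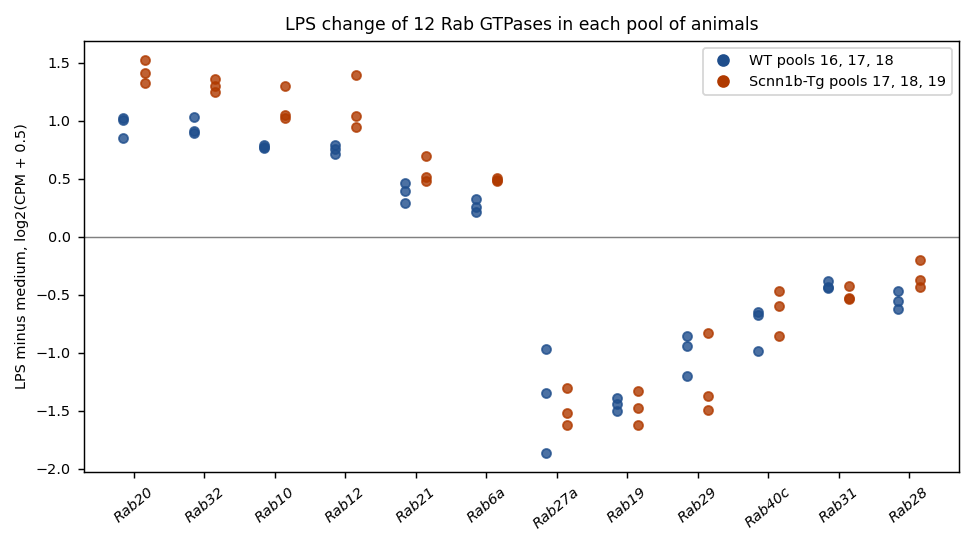
LPS minus medium in log2(CPM + 0.5) for the 12 Rab GTPases, 1 point for each pool of animals, WT in blue and Scnn1b-Tg in orange. For Rab20, Rab32, Rab10, Rab12, Rab21 and Rab6a the Scnn1b-Tg points lie above all WT points, and for 5 of the 6 fallers the points of the genotypes overlap.

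Genes that load, switch off, carry or answer to Rabs were followed from a list of 119, of which 117 were in the table and 109 tested. With LPS 15 rose and 26 fell in WT, 37.6% of those tested beside the 30.9% of all genes, and 16 rose and 34 fell in Scnn1b-Tg AMs, 45.9% beside 36.7%. The 29 GAPs gave 2 rises and 10 falls in WT and 2 rises and 12 falls in Scnn1b-Tg AMs, with median changes of -0.21 and -0.40. The falls were 34.5% and 41.4% of the GAPs, beside 15.7% and 17.8% of all genes. The rises were 6.9% in each genotype, beside 15.2% and 18.8%. Tbc1d2, a GAP for Rab7, went from 124 ± 14.3 to 29.3 ± 7.18 CPM for WT, and for Scnn1b-Tg AMs from 154 ± 15.02 to 26.9 ± 6.32 CPM (mean ± SD, n = 3), a change of -2.09 ± 0.16 for WT and -2.54 ± 0.16 for Scnn1b-Tg AMs (adjusted p = 3.78e-06 and 7.25e-07). Sgsm2, described as a GAP for Rab32, changed by -1.36 ± 0.16 for WT and -1.83 ± 0.16 for Scnn1b-Tg AMs (adjusted p = 0.000102 and 8.43e-06). Tbc1d16, which acts on Rab4, and Tbc1d14, which binds Rab11 and regulates autophagy, changed by -1.54 ± 0.27 and -1.23 ± 0.14 in WT and by -2.05 ± 0.27 and -1.39 ± 0.14 in Scnn1b-Tg AMs.

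**Figure D5:**
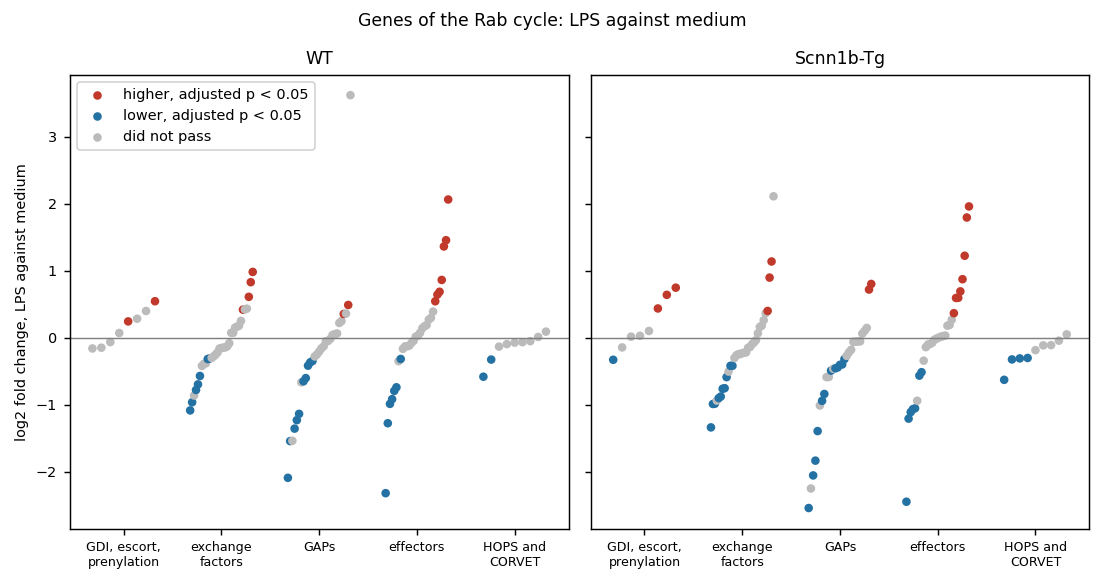
Fitted log2 fold change of LPS against medium for 109 genes of the Rab cycle in WT (left) and Scnn1b-Tg AMs (right), 1 point per gene, in red or blue where adjusted p was under 0.05. Called GAPs and exchange factors lie mostly below 0, and called effectors on both sides.

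The 33 tested exchange factors gave 4 rises and 7 falls in WT and 3 rises and 10 falls in Scnn1b-Tg AMs, with medians of -0.15 and -0.23. Called were 33.3% and 39.4%, near the 30.9% and 36.7% of all genes. The falls were 21.2% and 30.3%, beside 15.7% and 17.8%. Dennd4c, an exchange factor for Rab10, changed by -0.96 ± 0.15 for WT and -1.34 ± 0.15 for Scnn1b-Tg AMs (adjusted p = 0.000565 and 4.33e-05), the opposite direction to Rab10. Rab3il1 and Madd, which activate secretory Rabs of the Rab3 group, changed by -1.08 ± 0.14 and -0.78 ± 0.20 in WT and by -0.90 ± 0.14 and -0.99 ± 0.20 in Scnn1b-Tg AMs. Rab3ip, the Rab8 exchange factor also known as Rabin8, rose by 0.98 ± 0.11 for WT and 1.14 ± 0.11 for Scnn1b-Tg AMs (adjusted p = 7e-05 and 1.73e-05).

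Effectors (30 tested) were split, with 7 rises and 7 falls in WT and 8 rises and 7 falls in Scnn1b-Tg AMs. Rab11fip4 and Rab11fip1, which bind Rab11, rose by 2.06 ± 0.14 and 1.45 ± 0.13 in WT and by 1.79 ± 0.14 and 1.22 ± 0.13 in Scnn1b-Tg AMs. Rilpl1, which binds LRRK2-phosphorylated Rabs, rose by 1.36 ± 0.31 for WT and 1.96 ± 0.30 for Scnn1b-Tg AMs (adjusted p = 0.00614 and 0.000474). Its level was low, with means of 0.548 and 1.42 CPM in WT medium and LPS and 0.607 and 2.37 CPM in Scnn1b-Tg AMs. Rilpl2 stood far higher, at 265 ± 18.4 and 252 ± 28.7 CPM in WT and 278 ± 9.89 and 278 ± 19.5 CPM in Scnn1b-Tg AMs. Mlph (melanophilin), which ties Rab27a to a myosin motor, changed by -2.32 ± 0.13 for WT and -2.45 ± 0.13 for Scnn1b-Tg AMs (adjusted p = 6.12e-07 and 1.76e-07), in the direction of Rab27a itself. It was also the 1 gene of the 109 called between the genotypes, in both treatments: 5.48 ± 1.97 CPM in WT medium against 16.0 ± 4.41 in Scnn1b-Tg medium, and 1.08 ± 0.309 against 2.9 ± 0.616 CPM in LPS. These log2 differences were 1.33 ± 0.12 and 1.204 ± 0.14 (adjusted p = 0.00393 and 0.0117), while Rab27a had 0.25 ± 0.29 and 0.13 ± 0.31 and did not pass. Mlph was singled out here after its values were seen.

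The HOPS and CORVET tethers join endosomes and lysosomes with Rab5 or Rab7. Among 9 genes listed for them, none rose, 2 fell in WT and 4 fell in Scnn1b-Tg AMs. These falls were 22.2% and 44.4% of the 9, beside 15.7% and 17.8% of all genes. The 9 include Vps33b, a homolog of Vps33a that is not an established subunit of either tether. The HOPS subunits Vps39 and Vps41 fell in both genotypes, by -0.58 ± 0.12 and -0.33 ± 0.095 in WT and by -0.63 ± 0.12 and -0.31 ± 0.095 in Scnn1b-Tg AMs. Of 8 GDI, escort and prenylation genes 2 rose in WT and 3 rose and 1 fell in Scnn1b-Tg AMs. Rabggta, the subunit of the enzyme that attaches the lipid anchor of Rabs, rose by 0.54 ± 0.082 for WT and 0.64 ± 0.082 for Scnn1b-Tg AMs (adjusted p = 0.000503 and 0.000121), and Rabif, a chaperone of exocytic Rabs, by 0.24 ± 0.069 for WT and 0.44 ± 0.069 for Scnn1b-Tg AMs (adjusted p = 0.0204 and 0.00052).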

How the data were processed

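Cells from 6 pools gave 12 RNA libraries made with a low-input kit for full-length cDNA and sequenced as read pairs. The authors aligned reads to mm10 with HISAT2 without strand, quantified transcripts with StringTie against GENCODE M20 and deposited the estimated counts per gene as whole numbers, in which 1 read can be worth more than 1 count. The labels list DESeq2. Names, lengths and exon overlaps were taken from GENCODE M21, in which 20132 of 20551 IDs were found.

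Low genes were removed with filterByExpr (min.count 10, min.total 15), and the rest fitted with edgeR 4.0.16 in R 4.3.3 (TMM factors, a term per group and one for the batch, quasi-likelihood test). P-values were two-sided and adjusted by Benjamini-Hochberg over all genes tested (threshold 0.05). Each log2 fold change is given ± its standard error (SE). CPM values carry the TMM scaling. Per-pool and within-batch differences used log2(CPM + 0.5) and were not tested. The fit was tested on simulated data. Alternatives were DESeq2 1.42.0 and limma 3.58.1 (voom), and those named in the closing section. Libraries of a group come from separate pools of animals.

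By their labels, pools pair the libraries across treatments by animal. The medium and LPS libraries of a pool deviated together from their group means (r = 0.137 to 0.335 over genes in the 6 pools). Both libraries of a pool share a batch, which was not removed, so these values cannot tell pool from batch. Replicate numbers that WT and Scnn1b-Tg pools share come from other animals.

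Members and gene lists were chosen with earlier results of these data known. Per-library values are given for up to 12 members called in both LPS comparisons with the largest mean change and at least 1 CPM, for the 4 lowest p-values where a genotype comparison called under 4 members (applied to the interaction too), and levels for the top 5. Up to 4 genes per list of the Rab cycle were named in the same way.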

Additional observations from a re-analysis of the deposited data

How the results depend on the processing

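Counts of changed members kept within 1.5 times their value under each alternative, except with DESeq2, which called 3 members between the genotypes in medium, 1 in LPS and 1 in the interaction where edgeR called 0 of each. Without 1 library at a time, the LPS comparison called 13 to 16 members in WT and 16 to 23 in Scnn1b-Tg AMs, and 30 to 42 and 38 to 52 genes of the Rab cycle. Both genotype comparisons and the interaction called 0 members in every such fit. With the replicate block of pools as a fixed term, LPS called 19 members in WT and 21 in Scnn1b-Tg AMs, with a random pool term in voom 20 and 24, and the pairing changed no call of a named member. A replicate number block in place of the batch called 0 members between genotypes. The 5 leading Rabs held 45.6% of CPM per kb by coding length. Of the calls of named members, Rab31 in WT missed the threshold without a batch term and Rab28 in Scnn1b-Tg AMs without 3 of the libraries. Within each batch, the LPS changes of the 12 members described in full kept their sign, as did the genotype differences of Rab20, Rab4b, Rab7b and Rab19 in medium and of Rab32, Rab34, Rab7b and Rab19 in LPS. These members were chosen from the same libraries, so the kept signs are no separate check. In each batch 1 of the genotypes had only 1 pool. Some other differences, none of which passed, had opposite signs in batches 1 and 2, such as the genotype differences of Rab32 in medium (-0.09 and 0.10) and Rab27a in medium (-0.02 and 0.35) and in LPS (-0.39 and 0.74). The causes were not tested. Depth limits what can be said of the 10 members below the filter and of Rab42, Rab39, Rab38 and Rab37.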
